A study of Mus musculus with 2 samples.

Results

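The CD3 complex genes Cd3g (ENSMUSG00000002033), Cd3d (ENSMUSG00000032094), Cd3e (ENSMUSG00000032093) and Cd247 (ENSMUSG00000005763) were named as a set and are 4 of the 28692 genes counted. They were chosen with earlier results of these data known. They were followed in single cells from wild type CD1 mouse embryos at E13.5. Sca-1+ cKit+ hematopoietic stem and progenitor cells (HSPCs) of the fetal liver were seeded at 1000 cells per well on plates coated with the Notch ligand DL4 at 10 µg/mL and the adhesion molecule VCAM-1 at 2.32 µg/mL. Both libraries, FL001 and FL002, carry this same condition and are the only replicates. The study pooled cells captured at once after sorting with cells cultured for several days, and neither the days nor separate cultures are given per library. The p-values therefore rest only on how far differences between groups of cells varied between these 2 libraries. That spread was estimated over all groups together and moderated over all genes tested. It can thus be smaller than the gap between the libraries for a single gene.

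CD3γ, CD3δ and CD3ε are immunoglobulin-fold chains that pair as γε and δε, and CD3ζ, the product of Cd247, forms a homodimer with a long signalling tail. They flank the T cell receptor or, earlier in the thymus, the pre-T cell receptor, and pass its signal through tyrosine motifs that the kinase Lck phosphorylates. T cell precursors need Notch signals to begin this program, with the transcription factor TCF-1 (Tcf7) switched on early, the interleukin 2 receptor alpha chain (Il2ra) later, and Bcl11b at commitment.

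FL001 held 16320118 UMIs and FL002 22651783. A UMI marks 1 captured transcript at its 3′ end, so that the length of a gene does not enter its level. A barcode was kept as a cell from 1500 UMIs and 500 genes upwards, unless over 10% of its UMIs were mitochondrial, which left 1788 cells with a median of 7722 UMIs in FL001 and 4100 cells with a median of 4752.5 in FL002. The libraries shared 10 kept barcodes, where 9.94 would be shared if barcodes were drawn independently.

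Cells were gated on genes other than the CD3 chains. The progenitor gate required at least 2 UMIs of Lmo2 and Mef2c, transcription factor genes of early progenitors. The Tcf7 gate required a Tcf7 UMI, no Il2ra UMI and at most 1 of Lmo2 and Mef2c. The Il2ra gate required an Il2ra UMI, and the commitment gate at least 2 UMIs of Ptcra, Lef1 and Bcl11b. The innate gate required at least 2 UMIs of Rora, Klrd1 and Ncr1, genes of innate lymphoid and natural killer cells. A myeloid control gate, which should lack the chains, required at least 5 UMIs of the granule genes Elane, Prtn3 and Ctsg and of S100a8 and S100a9, with no UMI of Tcf7, Il2ra or the commitment genes. Of its cells, 85 in FL001 and 80 in FL002 also stood in the progenitor gate, where the myeloperoxidase gene Mpo, no gate gene, reached 977 and 701 CPM (UMIs per 1000000 UMIs of the same cells). The megakaryocyte gene Pf4 stood at 551 and 244 CPM in the progenitor gate. The innate gate was small, with 38 and 33 cells, and held Id2, an innate lymphoid regulator, at 835 and 686 CPM, whereas the receptor gene Il18r1 was at 4.39 and 0 CPM.

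Cd3g and Cd3d are neighbours on chromosome 9, with Cd3e next to Cd3d, and Cd247 lies on chromosome 1. In the annotation Cd3g and Cd3d are read from opposite strands away from each other, and Cd247 overlaps Pou2f1 on the opposite strand. The 250 bases before each start are printed because the 4 genes were called higher together from the progenitor to the Tcf7 step. They come from RefSeq on GRCm38.p6, which is not the build that the submitters' notes name for the counts. Capitals mark 6-base matches on either strand to 5 motifs, and no match overlapped another. They are the E-box (CANNTG), TCF/LEF (CTTTGA, with CTTTGT as the other form), the letters of GATA factors (AGATAA, with TGATAA as the other form), RUNX (TGTGGT, with TGCGGT as the other form) and ETS (AGGAAG, with CGGAAG as the other form).
Cd3g, chr9:44980432-44980681, minus strand: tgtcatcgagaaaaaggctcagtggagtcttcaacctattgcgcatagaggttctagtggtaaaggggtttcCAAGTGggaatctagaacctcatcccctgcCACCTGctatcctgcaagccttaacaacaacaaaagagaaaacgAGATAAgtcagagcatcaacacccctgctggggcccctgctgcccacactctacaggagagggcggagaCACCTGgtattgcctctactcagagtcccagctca
Cd3d, chr9:44981536-44981785, plus strand: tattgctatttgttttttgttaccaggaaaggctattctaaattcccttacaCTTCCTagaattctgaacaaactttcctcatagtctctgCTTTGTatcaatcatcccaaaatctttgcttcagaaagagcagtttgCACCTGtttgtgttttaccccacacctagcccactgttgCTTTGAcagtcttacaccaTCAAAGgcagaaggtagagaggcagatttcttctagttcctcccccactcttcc
Cd3e, chr9:45009612-45009861, minus strand: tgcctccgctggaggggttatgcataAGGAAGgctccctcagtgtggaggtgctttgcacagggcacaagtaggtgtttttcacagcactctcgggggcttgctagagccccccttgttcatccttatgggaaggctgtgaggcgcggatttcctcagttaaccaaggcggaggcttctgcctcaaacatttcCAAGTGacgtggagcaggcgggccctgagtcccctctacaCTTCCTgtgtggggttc
Cd247, chr1:165788431-165788680, plus strand: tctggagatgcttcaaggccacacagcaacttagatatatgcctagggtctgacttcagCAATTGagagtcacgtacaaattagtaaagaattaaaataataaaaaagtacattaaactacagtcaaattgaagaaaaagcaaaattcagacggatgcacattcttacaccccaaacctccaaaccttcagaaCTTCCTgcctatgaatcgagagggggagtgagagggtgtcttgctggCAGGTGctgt

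An E-box, the letters bound by E proteins, stood in 4 of the 4 stretches, with 3 matches before Cd3g, 2 before Cd247 and 1 each before Cd3d and Cd3e. Of all 32851 promoter stretches of this length, 66.2% held one. The TCF/LEF letters stood before Cd3d only, at 3 places, and 27.6% of all stretches held them. A GATA match stood before Cd3g only, against 16.6% of all, ETS matches stood before Cd3d, Cd3e and Cd247, against 39.2%, and no stretch held the RUNX letters, which 18.6% of all did. These matches describe the letters in the windows and not sites of binding.

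Cd3g was the most abundant chain at every stage of the program, and it was low in progenitors. In the progenitor gate it stood at 83.8 CPM in FL001 (449 cells) and 155 CPM in FL002 (793 cells). It stood at 1874 and 1715 CPM in the Tcf7 gate (385 and 999 cells), and at 2814 and 2443 CPM in the Il2ra gate (738 and 1668 cells). The commitment gate had the top values, 3622 CPM in FL001 (451 cells) and 3319.9 CPM in FL002 (501 cells). Both libraries thus gave the same order of gates, and within each library no 95% Poisson interval of one of these gates met that of the next. The gates are not separate sets of cells, since 275 and 291 of the commitment-gate cells also stood in the Il2ra gate.

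Cd3d, which encodes the δ chain, was found at a lower level than Cd3g in each of these gates. It stood at 11.4 and 19.2 CPM in the progenitor gate of FL001 and FL002, at 203 and 163 CPM in the Tcf7 gate, at 352 and 280.1 CPM in the Il2ra gate and at 621 and 475 CPM in the commitment gate. Cd3e, which encodes the ε chain that both heterodimers need, stood at 3.03 and 6.04 CPM in the progenitor gate, at 45.6 and 58.5 in the Tcf7 gate, at 78.4 and 82.5 in the Il2ra gate and at 121 and 124 in the commitment gate. Cd247 was the least abundant, with no UMI in the progenitor gate of FL001, which allows up to 0.757 CPM, and 0.625 CPM in FL002. It stood at 4.45 and 6.97 CPM in the Tcf7 gate, at 8.07 and 11.1 CPM in the Il2ra gate and at 15.7 and 22.0 CPM in the commitment gate. When the top 5% of cells by doublet score were left out, the progenitor gate held Cd3g at 63.2 and 95.2 CPM and Cd3d at 7.44 and 11.8 CPM. All intervals and floors cover counting error only.

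**Figure D1:**
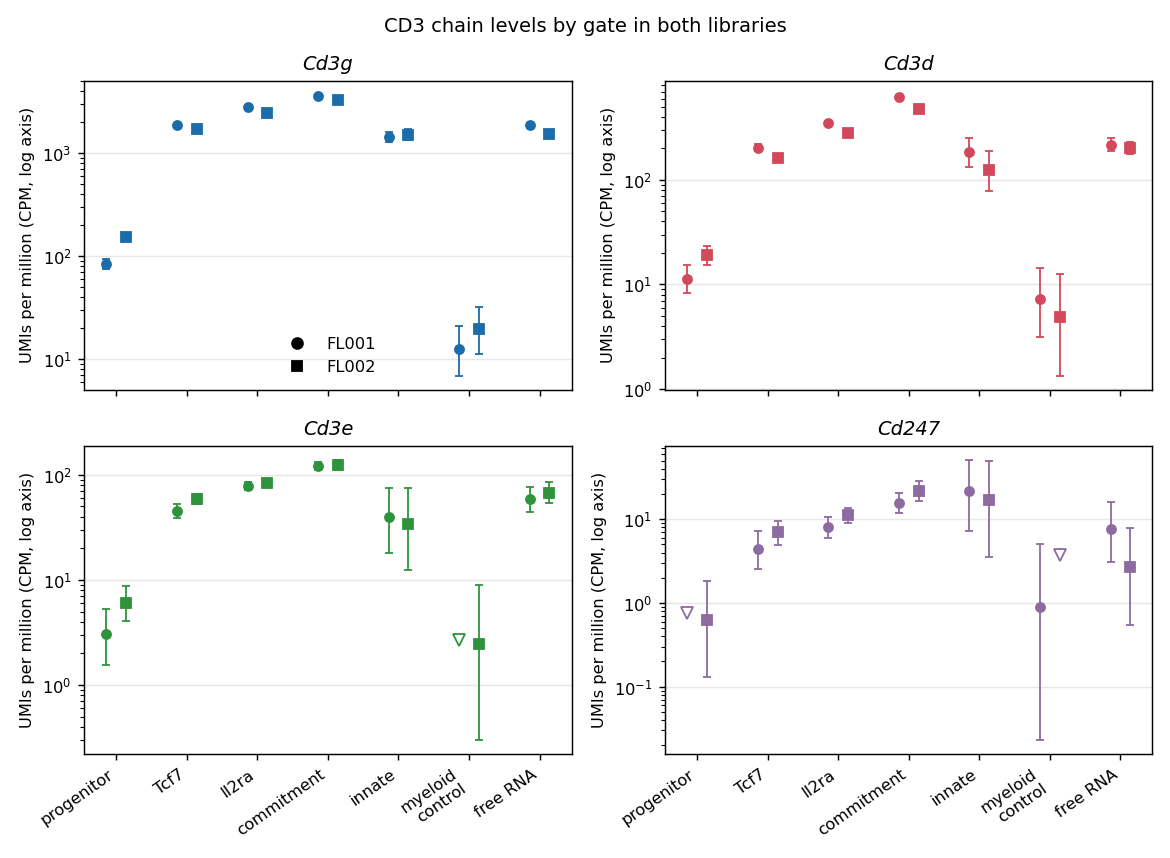
Level of each CD3 chain (CPM, log axis) by gate, in FL001 (circles) and FL002 (squares), with 95% Poisson intervals. Open triangles stand at the floor of 3 counts where no UMI was found, as for Cd247 in the progenitor gate of FL001 (0.757 CPM). Each chain stood higher in the commitment than in the progenitor gate of both libraries, and free RNA lay near the Tcf7 gate for Cd3g.

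Free RNA was read from 308744 and 293224 barcodes of 1 to 100 UMIs, and it carried Cd3g at about the mean level of the kept cells. Cd3g stood at 1880.5 and 1537 CPM there, against 1746 and 1531 CPM over all kept cells of FL001 and FL002. Cd3d stood at 217 and 204 CPM in free RNA, Cd3e at 58.4 and 67.6 CPM and Cd247 at 7.72 and 2.67 CPM. Over all kept cells these chains stood at 220 and 169, 48.7 and 52.3, and 5.03 and 6.72 CPM. Barcodes of 10 to 50 UMIs alone gave Cd3e at 86.4 and 88.3 CPM and Cd247 at 0 and 2.15 CPM. In the myeloid control gate, most of whose cells are also progenitor-gate cells, Cd3g stood at 12.6 CPM in FL001 (102 cells, median 10226.5 UMIs) and at 19.7 CPM in FL002 (104 cells, median 7620.5 UMIs). Cd3d stood at 7.22 and 4.92 CPM in these cells, whereas Cd3e and Cd247 rested on 0 to 2 UMIs per library. No cell of the control gate held more than 3 Cd3g UMIs. A megakaryocyte gate required at least 3 UMIs of Pf4, Ppbp, Gp9 and Gp1bb, and no UMI of Tcf7, Il2ra or the commitment genes. It held only 13 and 19 cells, of which 10 and 13 also stood in the progenitor gate. Cd3g had 4 UMIs there in FL001 (37.4 CPM) and 0 in FL002, which allows up to 30.7 CPM.

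The spread of Cd3g between cells was wide in the middle of the program. The gates overlap, with 250 cells in both the Tcf7 and the commitment gate, so cells were also given at most 1 exclusive step. Innate cells came first, then commitment cells. Of the rest, the Il2ra step required an Il2ra UMI and at most 1 UMI of Lmo2 and Mef2c. The progenitor step required at least 2 UMIs of Lmo2 and Mef2c and no Il2ra UMI, and the Tcf7 step kept the limits of its gate. Remaining cells with Il2ra and at least 2 UMIs of Lmo2 and Mef2c thus had no step. In all, 207 and 707 cells had no step. The Tcf7 step held 257 and 852 cells. In it 33.1% of the FL001 cells and 23.4% of the FL002 cells had no Cd3g UMI, while 20.2% and 12.1% had 20 or more, and the highest cell reached 116 and 66 UMIs. In the commitment step (441 and 496 cells) 0.680% and 1.61% of cells had no Cd3g UMI. In the progenitor step (415 and 712 cells) 89.9% and 86.2% had none, and 0.482% and 1.54% had 4 to 19 UMIs. The share with 1 to 3 UMIs there was 9.64% and 12.1%, against 11.8% and 13.46% in the control gate. The control gate is no separate reference here, since most of its cells also stand in the progenitor gate. Its cells were also deeper, with medians of 10226.5 and 7620.5 UMIs against 7997 and 5631 in the progenitor step. Cd3g stood at 19.8 and 48.9 CPM in the progenitor step, against 12.6 and 19.7 CPM in the control gate. In the whole progenitor gate, which held 27 and 73 cells with Il2ra, Cd3g stood at 83.8 and 155 CPM. The cells with 1 to 3 UMIs are not read as expression, and the source of these UMIs was not tested.

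**Figure D2:**
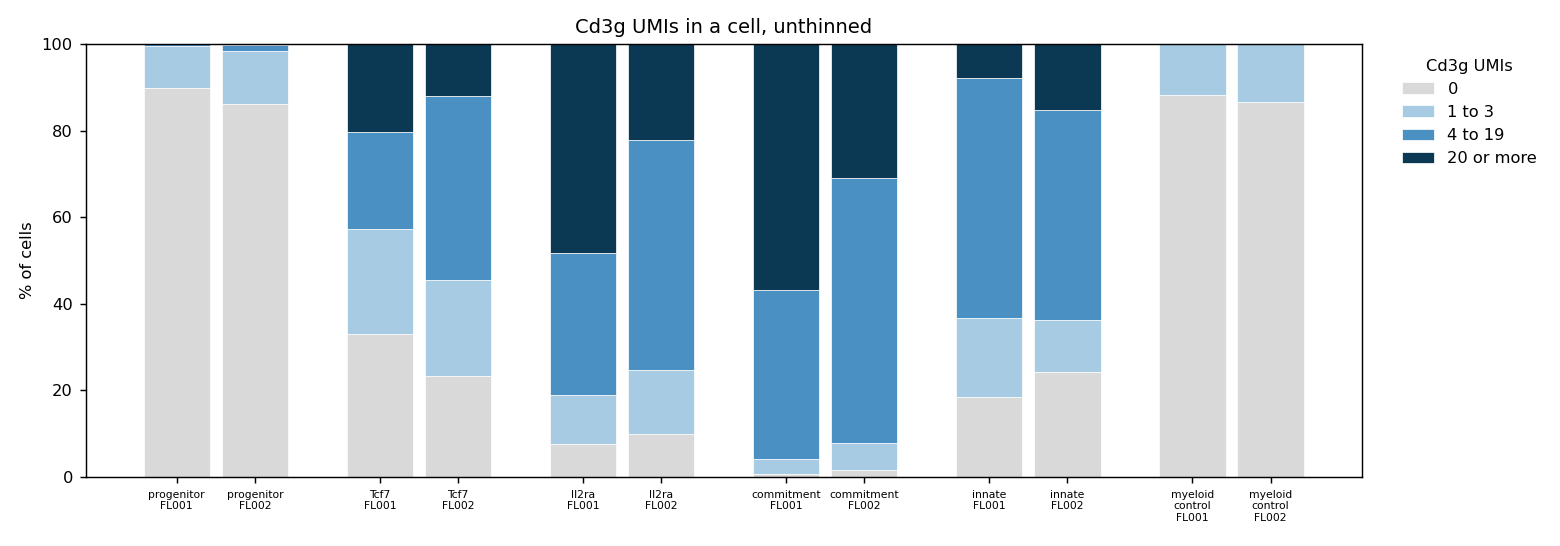
Share of cells (%) by the number of Cd3g UMIs in the cell, unthinned, for each exclusive step and the myeloid control gate in both libraries. The class of 20 or more UMIs went from 0% and 0.140% of progenitor-step cells to 56.9% and 31.0% of commitment-step cells.

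To ask which chain appears first, each cell was thinned to 1500 UMIs and the chains found in it were listed. Of the Tcf7-gate cells, 114 of 385 in FL001 and 136 of 999 in FL002 also stood in the commitment gate. The shares for the Tcf7 gate include these cells. In the Tcf7 gate 39.5% of FL001 cells and 47.6% of FL002 cells had Cd3g without Cd3d, whereas 1.82% and 1.40% had Cd3d without Cd3g. Cd3g without Cd3e was found in 55.3% and 57.0% of these cells, and Cd3e without Cd3g in 0.26% and 0.501%. For Cd3d and Cd3e the shares were 21.6% against 4.16% in FL001 and 16.1% against 5.91% in FL002. Cd3e without Cd247 stood at 6.23% and 8.81%, and Cd247 without Cd3e at 1.82% and 1.40%. In both libraries Cd3g was thus found alone most often, then Cd3d, then Cd3e. After thinning, 2.94% and 5.77% of control-gate cells held Cd3g, against 61.3% and 65.3% in the Tcf7 gate, whose median depths before thinning were 8782 and 5165 UMIs. Without thinning those last shares were 77.1% and 79.6%. Cd3d was found in 1.96% and 0% of thinned control-gate cells, Cd3e in 0% and 0.962%, and Cd247 in 0.980% (95% exact binomial interval 0.0248 to 5.34%) and 0%, where 0 of 102 and 0 of 104 cells allow up to 2.94% and 2.88%. The Cd247 shares of 1.82% and 1.40% in the Tcf7 gate were not shown to exceed those of the control gate. In the exclusive Tcf7 step, without commitment-gate cells, Cd247 was found in 0% of 257 FL001 cells and 1.29% of 852 FL002 cells.

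This order was also that of the levels of the 3 chains. When Cd3g and Cd3d were each thinned further, to the count that Cd3e had in the commitment gate, Cd3g without Cd3d was found in 9.09% and 7.91% of Tcf7-gate cells and Cd3d without Cd3g in 5.71% and 5.61%. Of the cells with only 1 of this pair, Cd3g was the one found in 61.4% in FL001 (95% exact binomial interval 47.6 to 74.0%) and 58.5% in FL002 (49.7 to 66.9%), and both intervals include 50%. For Cd3d and Cd3e, matched in the same way, Cd3d was the one found in 55.1% and 41.3%, so the libraries did not give 1 direction. This match to Cd3e was chosen after the values were seen. The planned match, to the count of Cd247 in the commitment gate, kept 0.941% and 1.01% of the thinned Cd3g UMIs in FL001 and FL002. Its pair counts are not given here.

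**Figure D3:**
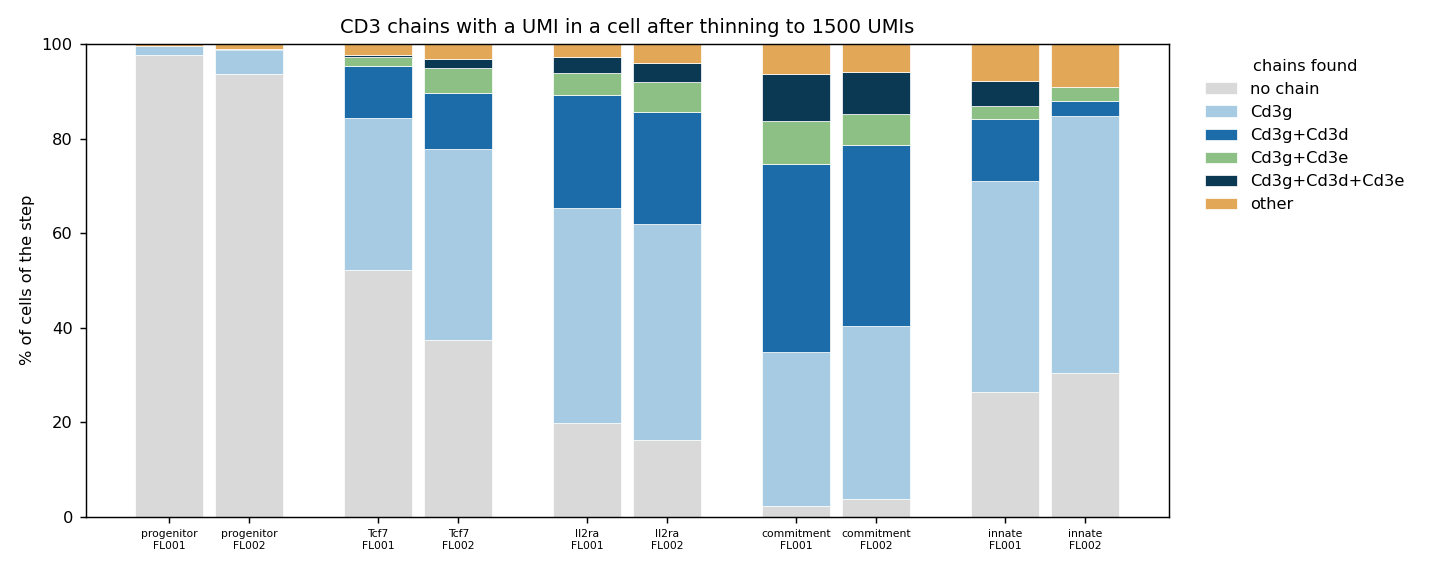
Share of cells (%) in each exclusive step and library by the set of CD3 chains with a UMI after thinning to 1500 UMIs; "other" gathers the remaining sets. Cells with Cd3g and no other chain made up 32.3% and 40.4% of the Tcf7 step, and Cd3g with Cd3d 39.7% and 38.3% of the commitment step.

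In the Tcf7 step, 52.1% of thinned FL001 cells and 37.4% of FL002 cells showed no chain. Cd3g alone was the leading set in the Il2ra step, at 45.6% in each library (430 and 1300 cells), followed by Cd3g with Cd3d at 24.0% and 23.6%. In the commitment step Cd3g, Cd3d and Cd3e stood together in 9.98% and 8.87% of cells, and no chain was found in 2.27% and 3.63%. The share without any chain was thus lowest in the commitment step, and the share with several chains highest there.

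Each chain was next set against its own level in the commitment step, which removes the differences in abundance. Cd3g had the highest relative level in the Tcf7 step of both libraries, at 31.0% (95% interval 29.8 to 32.3%) of its commitment level in FL001 and 44.3% (42.9 to 45.8%) in FL002. Cd3d stood at 12.4% (10.7 to 14.4%) and 25.5% (23.0 to 28.3%), and its intervals did not meet those of Cd3g. Cd3e stood between them, at 17.1% and 38.7%, and its interval in FL002, 32.4 to 46.1%, met that of Cd3g. These intervals cover counting error only, and the Cd3g intervals of FL001 and FL002 did not meet each other. Cd247 had no UMI in the Tcf7 step of FL001 and stood at 22.5% in FL002. In the Il2ra step Cd3g had reached 68.3% and 71.8%, Cd3d 34.4% and 53.6%, Cd3e 48.8% and 61.9%, and Cd247 27.1% and 43.0%. In the Il2ra step of FL002 the interval of Cd3e, 53.5 to 71.7%, met that of Cd3g, 69.8 to 73.8%. Cd3g was ahead of Cd3d at the Tcf7 and Il2ra steps in both libraries. Cd3e also stood above Cd3d at these steps, the reverse of the order in which they were found alone after thinning. The intervals of Cd3e and Cd3d met in the Tcf7 step of FL001 and in the Il2ra step of FL002. In the progenitor step Cd3e had the highest relative level, at 1.15% (0.371 to 2.70%) and 2.86% (1.58 to 4.80%), on 5 and 15 UMIs. Cd3g stood at 0.542% (0.423 to 0.684%) and 1.46% (1.27 to 1.68%) there, and the intervals of both chains overlapped in each library.

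**Figure D4:**
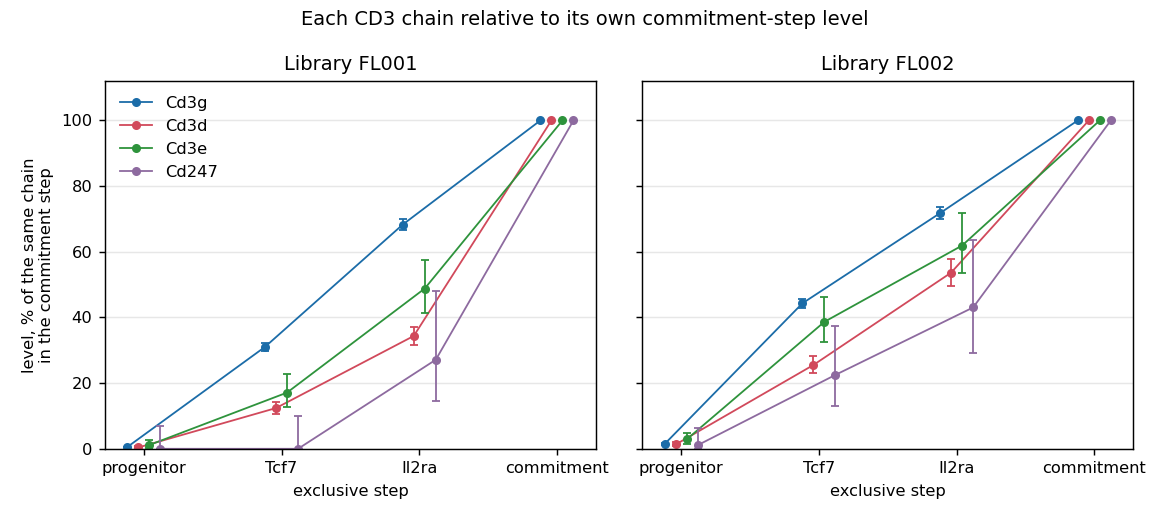
Level of each chain as a percentage of its level in the commitment step, by exclusive step, in FL001 (left) and FL002 (right); bars are 95% counting intervals. Cd3g lay above the other chains in the Tcf7 and Il2ra steps, where in FL002 the Cd3e intervals met those of Cd3g. Cd3d lay at 34.4% and 53.6% in the Il2ra step.

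The make-up of the chain UMIs shifted accordingly. Per 100 Cd3g UMIs there were 6.81 Cd3d UMIs in the Tcf7 step of FL001 and 8.23 in FL002, 8.57 and 10.7 in the Il2ra step, and 17.0 and 14.3 in the commitment step. Cd3e went from 1.83 and 3.28 per 100 Cd3g UMIs in the Tcf7 step to 3.33 and 3.76 in the commitment step, and the FL002 intervals (2.86 to 3.75 and 3.33 to 4.22) overlapped. Free RNA held 11.55 and 13.3 Cd3d UMIs per 100 of Cd3g, between the Il2ra and commitment steps in both libraries. The progenitor step had 12.7 in each library, on 9 and 26 Cd3d UMIs, with intervals of 5.57 to 25.4 and 8.13 to 19.2. These intervals take in the values of the free RNA and also of the Tcf7, Il2ra and commitment steps, so this ratio cannot tell them apart.

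**Figure D5:**
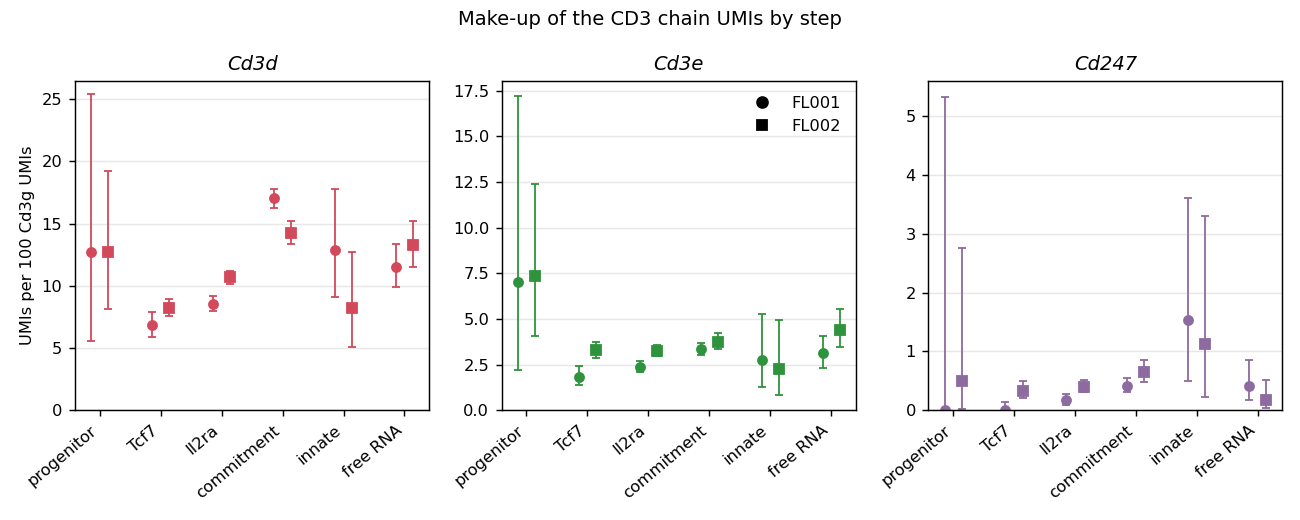
UMIs of Cd3d, Cd3e and Cd247 per 100 Cd3g UMIs by exclusive step and in free RNA, for FL001 (circles) and FL002 (squares), with 95% counting intervals. Cd3d went from 6.81 and 8.23 in the Tcf7 step to 17.0 and 14.3 in the commitment step, and Cd247 in the innate step rested on 5 and 3 UMIs.

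The steps were then compared with edgeR over sums of cells per library and step, with library as a term and Benjamini-Hochberg adjustment over 10735 genes. The 4 chains passed the expression filter. From the progenitor to the Tcf7 step, Cd3g went from 19.8 to 1133 CPM in FL001 and from 48.9 to 1480.4 CPM in FL002, with no overlap of the groups, a log2 fold change of 5.25 (SE 0.147) and an adjusted p of 1.7e-25. Cd3d rose by 4.52 (SE 0.256, adjusted p = 1.17e-16), from 2.51 to 77.1 CPM and from 6.24 to 122 CPM. Cd3e rose by 3.83 (SE 0.303, adjusted p = 1.4e-12), from 1.39 to 20.8 CPM and from 3.60 to 48.6 CPM. All 4 chains were called higher, against 12.4% of all genes tested. Over 9 alternatives the adjusted p did not exceed 1.84e-07 for Cd3g, 2.01e-06 for Cd3d and 9.38e-05 for Cd3e.

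The call for Cd247 (log2 fold change 4.16, SE 0.995, adjusted p = 0.00162) came from FL002 alone. FL001 had no UMI in either step, and FL002 had 23 UMIs against 1, a ratio of 20.5 with a counting interval of 3.33 to 845. DESeq2 (adjusted p = 0.0657) and a fit without library as a term (adjusted p = 0.0692) did not call it.

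From the Tcf7 to the Il2ra step, 3 of the 4 chains were called higher, where 0.987% of all genes were. Cd3g rose by 0.91 on the log2 scale (SE 0.105, adjusted p = 3.66e-07), to 2493 CPM in FL001 and 2399 CPM in FL002. Cd3d rose by 1.21 (SE 0.135, adjusted p = 2.48e-07), to 214 and 256 CPM, and Cd3e by 0.93 (SE 0.160, adjusted p = 0.000456), to 59.3 and 77.8 CPM. The Cd3e change was 1.51 in FL001 and 0.69 in FL002. Cd247 had 0 and 4.92 CPM in the Tcf7 step and 4.09 and 9.41 CPM in the Il2ra step, a log2 fold change of 1.24 (SE 0.413) that did not pass (adjusted p = 0.208). DESeq2 called none of these chains (adjusted p from 0.247 for Cd3e to 1 for Cd3g), nor did the fit without library as a term (0.115 to 0.844 for Cd3g, Cd3d and Cd3e), and for Cd3e cells thinned to equal depth gave 0.0851.

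From the Il2ra to the commitment step, the 4 chains were called higher, against 4.77% of all genes. The smallest change was that of Cd3g, 0.51 (SE 0.103, adjusted p = 0.000675), to 3651 and 3342 CPM. Cd3d rose by 1.23 (SE 0.120, adjusted p = 1.3e-09), to 622 and 477 CPM. Cd3e rose by 0.87 (SE 0.140, adjusted p = 2.11e-05), to 121 and 126 CPM, and Cd247 by 1.47 (SE 0.302, adjusted p = 0.000779), to 15.1 and 21.9 CPM. In every case both libraries were higher in the later step. DESeq2 gave adjusted p-values of 0.126 to 1 for the 4 chains, and without library as a term only Cd3d was called.

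Myeloid transcripts moved the other way over these steps. The summed level of 7 myeloid genes, Elane, Prtn3, Ctsg, S100a8, S100a9, Mpo and Ly6c2, was 2332 and 1532 CPM in the progenitor step of FL001 and FL002, 391 and 168 CPM in the Tcf7 step, 376 and 115 CPM in the Il2ra step, 29.9 and 83.2 CPM in the commitment step and 35.1 and 159 CPM in the innate step. Of the 7, 1 was at 0 in the Tcf7 and commitment steps of FL001 and in the Il2ra step of FL002, and 5 and 4 were at 0 in the innate step. Their part in the differences of the chains was not tested.

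Among the chains Cd247 alone was called between the innate and the Tcf7 step, on few UMIs, and no test compared it with the other chains. Of the innate-step cells, 10 of 38 in FL001 and 5 of 33 in FL002 also met the commitment gate, whose cells the Tcf7 step does not hold. Cd3g stood at 1437 CPM in FL001 and 1519.8 in FL002, next to 1133 and 1480.4 in the Tcf7 step, a log2 fold change of 0.092 (SE 0.134, adjusted p = 0.783). Cd3d stood at 185 and 125 CPM (0.54, SE 0.293, adjusted p = 0.332) and Cd3e at 39.5 and 34.0 CPM (−0.026, SE 0.462, adjusted p = 0.989). Cd247 stood at 22.0 and 17.0 CPM, on 5 and 3 UMIs, and its log2 fold change of 2.74 (SE 0.835, adjusted p = 0.038) was the only call among the 4, where 3.29% of all genes were called higher and 3.62% lower. In FL001 these 5 UMIs stood against 0 in the Tcf7 step, a ratio with a lower 95% counting limit of 10.1, and in FL002 the ratio was 3.46 with a counting interval of 0.664 to 11.4. The call was lost with cells thinned to equal depth (adjusted p = 0.261), with each gate limit raised by 1 UMI (0.422) and without library as a term (0.281). It was also lost without the cells that met the commitment gate, an alternative chosen after the values were seen, which left 2 Cd247 UMIs in each library (log2 fold change 2.09, SE 1.07, adjusted p = 0.315). Cd3d then turned to −0.85 (adjusted p = 0.292), on 9 and 10 UMIs in place of 42 and 22.

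Fcer1g, which encodes the FcRγ adaptor that can form dimers with CD3ζ in natural killer cells, was highest in the innate step. It stood at 127 and 114 CPM in the progenitor step, 297 and 262 in the Tcf7 step, 417 and 321 in the Il2ra step, 303 and 257 in the commitment step and 743 and 692 in the innate step. It rose by 1.25 and 0.39 at the first 2 transitions and then fell by 0.40 into commitment (adjusted p = 4.17e-14, 0.00299 and 0.00049). Its innate step was 1.26 higher than the Tcf7 step (adjusted p = 2.7e-10). Fcer1g thus rose at the first transition and fell into commitment, and the 4 chains were called higher at both.

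Other genes of T cell receptor signalling were taken from a list of 35, of which 30 were tested. Ptcra, the pre-T cell receptor alpha chain gene, is one of the 30 and helped to set the commitment gate, so the counts are given over the other 29. From the progenitor to the Tcf7 step 17 were higher and 1 lower, against 12.4% and 11.9% of all genes, with a median log2 fold change of 1.13 against −0.0055 over all genes. Trdc, the δ receptor constant gene, rose by 4.64 (adjusted p = 1.4e-15), and the γ constant genes Tcrg-C4 and Tcrg-C1 rose by 3.90 and 3.69 (adjusted p = 1.44e-24 and 5.37e-25). Some of the γ constant genes are close copies, as are Trbc1 and Trbc2, and reads of such copies may be miscounted. The coreceptor gene Cd4 fell by 3.17 (adjusted p = 0.0103) at 3.12 CPM or less in both steps of both libraries. Cd8a, Cd8b1, Trac, Cd6 and Trat1 did not pass the expression filter.

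At the next step 8 of the 29 were called higher, against 0.987% of all genes, with a median of 0.26. Trdc rose by 1.56 (adjusted p = 3.02e-10), Txk, a Tec-family kinase, by 1.20 (7.62e-07) and Tcrg-C2 by 0.88 (1.6e-09). Into commitment 11 were higher and 3 lower, against 4.77% and 3.43% of all genes, with a median of 0.44. The adhesion receptor Cd2 rose by 4.17 (adjusted p = 7.66e-05), from 0.511 and 0.154 CPM to 6.54 and 5.57 CPM. Themis, a T cell signalling adaptor, rose by 2.34 (2.92e-09) and the costimulatory receptor Cd28 by 1.89 (3.51e-09). Cd5, a receptor that dampens signalling, fell by 2.52 (0.0106) at a low level, from 3.58 and 4.48 CPM to 0.284 and 1.29 CPM. The adaptor Tyrobp fell by 0.95 (1.3e-08), and Fcer1g was the other gene that fell.

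Between the innate and the Tcf7 step 7 of the 29 were higher and 2 lower, against 3.29% and 3.62% of all genes, with a median of 0.40 against −0.096 over all genes. Cd7, found on T and natural killer cells, was higher by 3.88 (adjusted p = 1.87e-18), Themis by 3.11 (0.000763) and Txk by 1.54 (0.000852). Tcrg-C2 fell by 0.97 (0.000195) and the β constant gene Trbc2 by 0.72 (2.95e-08).

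The chains were also followed over UMI classes of the gating genes, a description added after the values were seen. Among cells with at most 1 UMI of Lmo2 and Mef2c, without Il2ra and outside the commitment and innate steps, Cd3g stood at 705 and 874 CPM where no Tcf7 UMI remained after thinning (331 and 1013 cells). It stood at 1213 and 1526 CPM with 1 Tcf7 UMI and at 2053 and 1845 CPM with 2 to 3 (29 and 131 cells). For the Il2ra classes the limit of no Il2ra UMI was dropped, and UMIs were again counted after thinning. The class of 0 (662 and 1999 cells) thus takes in cells that lost their Il2ra UMIs on thinning. Over Il2ra classes of 0, 1 and 2 to 3 UMIs Cd3g stood at 1376, 2692 and 3460.1 CPM in FL001 and at 1358, 2619 and 2839 CPM in FL002. Cd3d went from 97.1 to 364 CPM and from 119 to 346 CPM over the same Il2ra classes. Each library thus showed more Cd3g and Cd3d in cells with more Il2ra UMIs.

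Cd3g was found more often than Tcf7 itself. Among cells outside the innate step with at most 1 UMI of Lmo2 and Mef2c and no Il2ra UMI (604 and 1689 cells), 34.8% and 30.2% had Cd3g without Tcf7 after thinning, and 8.44% and 10.1% had Tcf7 without Cd3g. For Cd3e the order was the other way, with 4.97% and 3.67% for Cd3e without Tcf7 and 23.5% and 28.5% for Tcf7 without Cd3e. These shares move with the level of each gene, and Tcf7 stood at 338 and 486 CPM in the Tcf7 gate, below Cd3g and above Cd3e. That gate requires a Tcf7 UMI, which raises its Tcf7 level. The level of Tcf7 over the 604 and 1689 cells is not given here.

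Genes with the pattern most like each chain were ranked by Pearson's r of log2(CPM + 10) over the 10 sums of 5 steps in 2 libraries, among 4058 genes with at least 50 CPM in a sum. The sums of a library share their depth, and r is given as a description. For Cd3g they were Ifitm1 (0.987), the granzyme gene Gzma (0.986), Sytl3 (0.986), Tcrg-C1 (0.983) and 1500009L16Rik (0.981). For Cd3d they were Fam169b and Lck (both 0.995), Timp2, the surface marker Thy1 and Aak1, and for Cd3e Fam169b (0.991), the imprinted RNA H19, Lck, Trdc and Mpzl2. Mpzl2 is the RefSeq neighbour of Cd3e. For Cd247 the top gene was the transcription factor gene Ets1 (0.981), followed by Atp6v1g1, Ndufa6, Ddx6 and Ndufa13. Cd3d and Cd3e were the closest pair of chains (0.985), Cd3g stood at 0.964 with Cd3d and 0.935 with Cd3e, and Cd247 had the lowest values with the other chains, from 0.67 to 0.76. Cd247 itself had 0 to 61 UMIs in a sum and at most 22.0 CPM, below the minimum of 50 CPM for ranked genes. Its values of r and its list thus rest on few UMIs.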

How the data were processed

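Libraries were made with 10X Chromium, sequenced from the 3′ end and counted with CellRanger by the authors, and the deposited matrices hold unnormalized UMI counts of each gene in each barcode. The submitters' notes name the build mm9, and the CellRanger version and its annotation are not given in the sources used here. The members, gates and gene lists were chosen with earlier results of these data known. CPM are UMIs summed over cells per 1000000 UMIs, with 95% Poisson intervals. Shares have exact binomial intervals, and 3 counts set the floor for a count of 0. Scrublet (scanpy 1.11.5) marked 0.391% and 0.0244% of cells, too few for a working caller, so doublets were kept, and an alternative left out the 5% with the highest scores. Sums per library and step were tested with edgeR 4.0.16 (quasi-likelihood, TMM, filterByExpr, threshold 0.05, two-sided). The fit was run on simulated counts with large changes only and no difference between libraries. That run does not bear on small changes or on libraries that differ. The SE beside an edgeR log2 fold change was derived from the test, as its absolute value divided by the square root of the F statistic. DESeq2 1.42.0 was an alternative. Its own SE for Cd3g from the progenitor to the Tcf7 step was 0.40, against 0.147 derived from edgeR. Named were the 4 chains, gate genes, Fcer1g, the 3 largest changes each way in the pathway list outside the gate genes, and the 5 most alike genes; markers used to check gates were named too. Fewer cells of a kind within a gate and less RNA per cell were not separated in the sums.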

Additional observations from a re-analysis of the deposited data

How the results depend on the processing

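Over the 3 transitions from progenitor to commitment, 107 of 107 log2 fold changes of the 4 chains kept their direction in the alternatives that kept both libraries, and 85 passed the threshold. They come from 9 alternative settings on the same 2 libraries and are not independent checks. DESeq2 gave log2 fold changes of 4.14 for Cd247 (progenitor to Tcf7 step), 0.93, 1.26 and 1.03 for Cd3g, Cd3d and Cd3e (Tcf7 to Il2ra step) and 0.51, 1.24, 0.88 and 1.57 for Cd3g, Cd3d, Cd3e and Cd247 (Il2ra to commitment step), none past the threshold. Without library as a term the values not past it were 4.22 for Cd247 at the first transition, 0.90, 1.22 and 0.93 for Cd3g, Cd3d and Cd3e at the next, 0.50, 0.83 and 1.34 for Cd3g, Cd3e and Cd247 into commitment, and 2.59 for Cd247 in the innate step. Thinned cells lost Cd3e from Tcf7 to Il2ra (0.75) and Cd247 in the innate step (2.26), and higher gate limits (1.89) and leaving out innate cells that met the commitment gate (2.09) lost the latter. Cd247 passed from Tcf7 to Il2ra with no filter (1.24), with only these 2 steps (1.28) and with at least 3000 UMIs per cell (1.91). Over alternatives, its adjusted p there ran from 0.0101 to 1, and in the innate step from 0.00145 to 0.422. No cause of these changes was tested. Genes called higher from Tcf7 to Il2ra numbered 106, against 35 by DESeq2, 152 with no filter, 61 with thinned cells, 2 without library as a term and 298 with only these steps.

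Leaving out 1 library gave no test, and a chain without a UMI in the remaining library got no value. The log2 fold changes then ran from 4.96 to 5.86 for Cd3g at the first transition, and from 4.32 to 4.94 for Cd3d. From Tcf7 to Il2ra they ran from 0.71 to 1.14 for Cd3g, from 1.08 to 1.47 for Cd3d and from 0.69 to 1.51 for Cd3e. Into commitment they ran from 0.86 to 1.52 for Cd3d, from 0.65 to 1.01 for Cd3e and from 1.17 to 1.85 for Cd247. In the innate step they ran from −0.080 to 0.23 for Cd3g, from −0.083 to 1.14 for Cd3d and from −0.63 to 0.81 for Cd3e, with 1.66 for Cd247 without FL001. The excess of Cd3e-only over Cd247-only cells in the Tcf7 gate was 5.91 percentage points, and 8.14 at 2000 UMIs, 10.4 at 3000 and 19.6 without thinning. As a mean of the libraries, the Tcf7 gate held Cd3g at 51.7% of its commitment-gate level, and at 50.9% with at least 3000 UMIs, 49.8% without the highest doublet scores and 36.7% with cells of 1 gate only, where Cd3d stood at 14.6%, Cd3e at 25.3% and Cd247 at 8.87%. Cd247 stood at 27.6% with at least 3000 UMIs. Few Cd247 UMIs and 33 to 38 innate cells limit those values.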
